A study of Mus musculus with 4 samples.

Results

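Transcripts of the aminoacyl-tRNA synthetases, the enzymes that charge each transfer RNA with its amino acid, were examined in skeletal muscle and heart of mice lacking MG56, the product of Hhatl. The members were taken from a fixed list of 35 gene symbols, 20 for cytosolic enzymes and 15 for mitochondrial enzymes (symbols ending in 2), out of 18193 genes with a probe set of their own on the array. Probe sets annotated to that symbol alone were used, with Mars read under the symbol Mars1. This gave values for 34 members, 19 cytosolic and 15 mitochondrial, from 70 probe sets. For Dars, the cytosolic aspartate enzyme gene, no expression value was used here, and only its promoter window was searched.

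The arrays held RNA of MG56-knockout tibialis anterior (TA, a fast muscle of the lower leg), wild-type TA, MG56-knockout heart and wild-type heart, all from C57BL/6J mice at postnatal day 9. The design text says that 3 knockout mice contributed to the mixed RNA. How many wild-type mice did is not stated there. With 1 array for each of the 4 groups there is no replicate error and no test, and every ratio compares a pair of RNA mixtures. In whole tissue, fewer cells of a type and less RNA per cell cannot be told apart.

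Cytosolic synthetases supply the ribosomes of the cytosol, and a separate set, encoded in the nucleus and imported, supplies the ribosomes of mitochondria. Glycine and lysine are exceptions, since Gars and Kars each encode both forms. Several cytosolic enzymes are held together in the multi-synthetase complex by the scaffold proteins encoded by Aimp1, Aimp2 and Eef1e1. Many cytosolic synthetase genes are known targets of ATF4, the transcription factor of the integrated stress response, which binds with C/EBP partners at a composite element called CARE.

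The CARE letters were looked for in RefSeq promoter windows (GRCm38.p6, 250 bases before to 50 after the start site), because many cytosolic members were higher together in knockout TA. Windows were found for 13 cytosolic and 13 mitochondrial members. Those of Cars, Hars, Lars, Nars, Rars, Vars, Wars, Hars2 and Pars2 were not used here. The motif was TGATGNAA, read on both strands (TTNCATCA on the other), with no other motif overlapping it searched. It occurred in 5 of the 13 cytosolic windows and in 0 of the 13 mitochondrial windows, against 4.51% of 27025 genes. The 5 genes were Aars, Gars, Iars, Tars and Yars. The ER stress element (ERSE), at which ATF6 acts with NF-Y, was searched on both strands and was in 0 of the 26 windows, and in 0.137% of all genes. A match describes letters and not a bound site.

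The stretches around the matches of 4 of these genes are shown because their letters were found in some cytosolic windows and in 0 mitochondrial windows. They are printed 5′ to 3′ along the gene, 30 bases each, with the CARE letters in capitals. Position 1 is the first transcribed base.
Gars, chr6:55037960-55037989, plus strand, match starting 30 bases upstream: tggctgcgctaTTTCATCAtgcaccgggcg
Iars, chr13:49682126-49682155, plus strand, match starting at position 8: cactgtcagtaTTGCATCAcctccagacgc
Tars, chr15:11399655-11399684, minus strand, match starting 15 bases upstream: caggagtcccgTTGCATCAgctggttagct
Yars, chr4:129189895-129189924, plus strand, match starting at position 4: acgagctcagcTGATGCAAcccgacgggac
In Iars and Tars the letters read TTGCATCA, and in Yars as its reverse complement TGATGCAA, while Gars had TTTCATCA.

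Signals are linear MAS5 intensities. Values under 101.3, the median over all probe sets and arrays, were raised to it as a floor. Hhatl, read by 1 probe set, had a signal of 1078 in knockout TA against 5491 in wild-type TA, and 880 in knockout heart against 2110 in wild-type heart, so the labels and the targeted gene went the same way. All 8 skeletal muscle markers were above the floor in both TA pools, and all 8 heart muscle markers in both heart pools. Of the 8 cell division markers, 7 had a probe set, and they were lower in the knockout pools of both tissues, in 6 of 7 genes in TA and 7 of 7 in heart at 1.5-fold. Their summed signal was 2877 in knockout TA against 6524 in wild-type TA, and 3284 in knockout heart against 8597 in wild-type heart. The 5 neutrophil markers summed to 1195 in knockout TA against 420 in wild-type TA, with 3 of 5 genes above the floor in the knockout pool. Fibroblast markers summed to 117708 in knockout TA against 130145 in wild-type TA, and 0 of 6 reached 1.5-fold. The Y-linked gene Uty was 2.71-fold higher in knockout TA and 2.29-fold higher in knockout heart. The part of these differences in the results below was not tested.

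In knockout TA, the cytosolic synthetases were higher as a group and the mitochondrial enzymes were not. Of 19 cytosolic genes, 16 had a higher signal in the knockout pool than in wild type, with a median log2 ratio of 0.46. Of 15 mitochondrial genes, 6 were higher, and the median was -0.05. Over all 11528 genes measured in TA, 48.7% were higher and the median log2 ratio was -0.01. At 1.5-fold, 4 cytosolic genes were higher and 0 lower, and 0 mitochondrial genes passed either way. Among all measured genes 4.2% were 1.5-fold higher and 4.44% 1.5-fold lower. No member reached 2-fold in TA, where 0.954% of genes were 2-fold higher and 0.92% 2-fold lower.

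**Figure D1:**
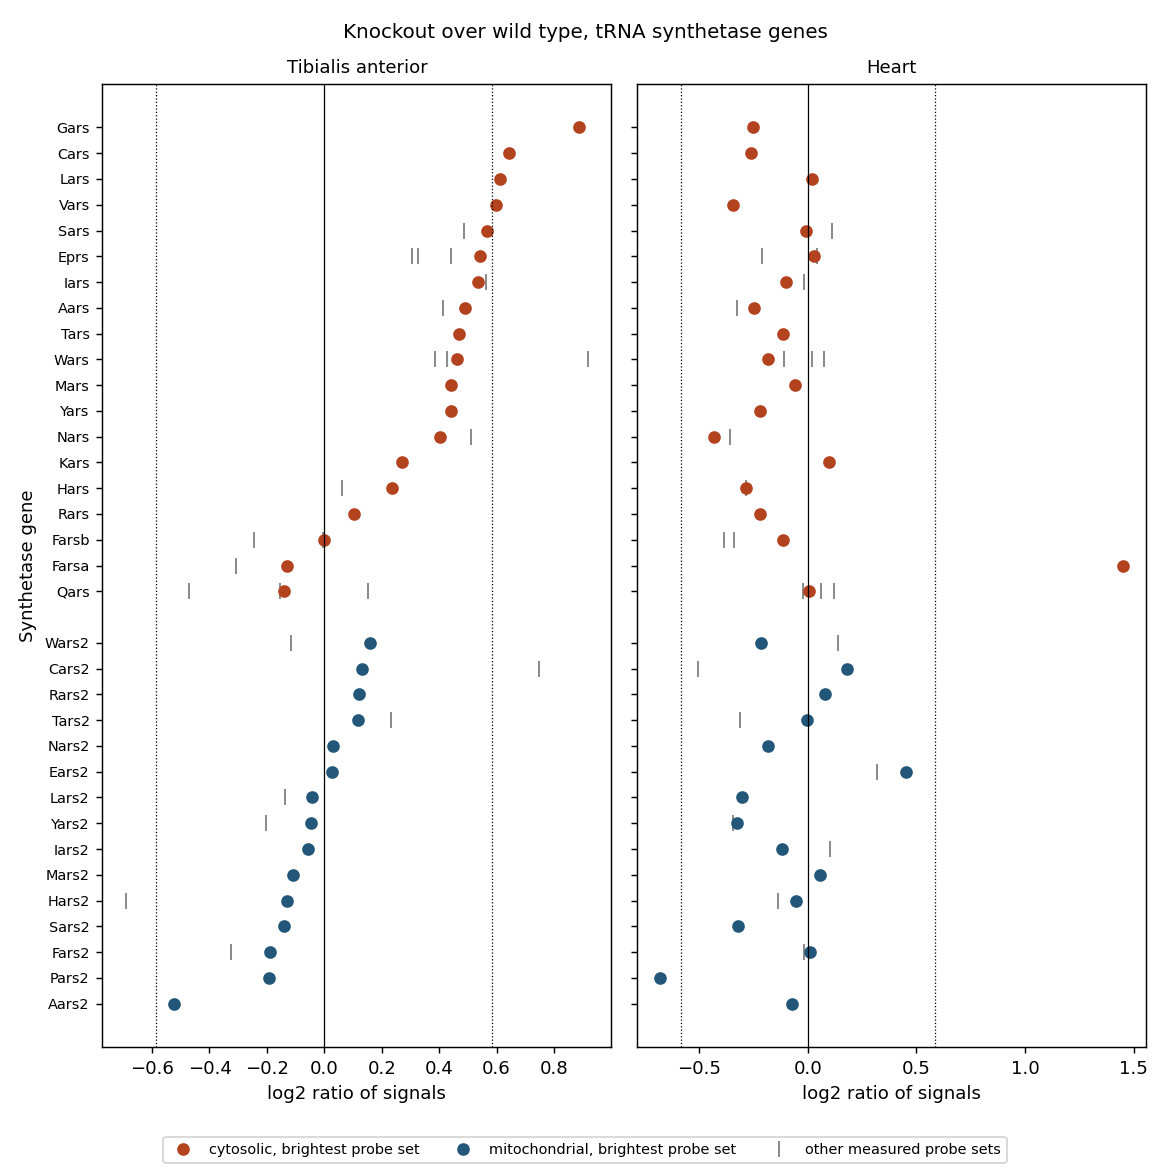
Log2 ratio of knockout over wild-type signal (horizontal axis) for each synthetase gene (vertical axis), in TA on the left and heart on the right. Dots are the probe set with the highest mean signal, grey ticks are other measured probe sets, and dotted lines mark 1.5-fold. In TA the cytosolic dots run from Qars at -0.14 to Gars at 0.89, and the mitochondrial dots from Aars2 at -0.52 to Wars2 at 0.16. In heart Farsa stands apart at 1.45.

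Gars, whose product charges glycine transfer RNA in both compartments, had the largest knockout ratio among the members in TA on the probe sets shown. Another probe set of Wars, not the one shown, reached 1.89-fold. Its signal was 5525 in knockout TA and 2985 in wild-type TA, against 2107 in knockout heart and 2510 in wild-type heart. Knockout TA was thus the highest of the 4 arrays, 1.85-fold above wild-type TA, and wild-type heart was above knockout heart. Of all genes measured in TA, 1.34% had a larger ratio than Gars.

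Cars, the cysteine enzyme gene, had a signal of 664 in knockout TA and 425 in wild-type TA, 1.56-fold higher, and of 264 in knockout heart and 317 in wild-type heart. Lars, the leucine enzyme gene, had 3310 in knockout TA and 2166 in wild-type TA, 1.53-fold higher, and 2000 in knockout heart and 1974 in wild-type heart. Vars, the valine enzyme gene, had 325 in knockout TA and 215 in wild-type TA, 1.51-fold higher, and 238 in knockout heart and 302 in wild-type heart. All of these were highest on the knockout TA array. With the floor raised to the 75th percentile of all signals, 471.5, only Gars and Lars passed 1.5-fold, as Cars had a log2 ratio of 0.49 and Vars was not measured, against 3.29% of all genes higher.

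Just below 1.5-fold came Sars (serine), at 2178 in knockout TA and 1470 in wild-type TA, and Eprs, a fused enzyme for glutamate and proline, at 7539 in knockout TA and 5179 in wild-type TA. Iars (isoleucine) had 4902 in knockout TA against 3386 in wild-type TA. Aars (alanine) had 1777 in knockout TA against 1265 in wild-type TA. These genes differed by 1.41-fold to 1.48-fold, all in the same direction.

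Tars (threonine), Wars (tryptophan), Mars (methionine), Yars (tyrosine) and Nars (asparagine) followed with log2 ratios of 0.47, 0.46, 0.44, 0.44 and 0.40. For Wars 4 probe sets were measured, and all were higher in knockout TA, from 1.31-fold to 1.89-fold. Smaller ratios were found for Kars (lysine) at 0.27, Hars (histidine) at 0.24 and Rars (arginine) at 0.10.

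The exceptions were the phenylalanine and glutamine enzymes. Phenylalanyl-tRNA synthetase is built from the subunits encoded by Farsa and Farsb. Farsa had 388 in knockout TA and 425 in wild-type TA, and Farsb had 2496 in knockout TA and 2498 in wild-type TA. Qars (glutamine) had 2318 in knockout TA and 2556 in wild-type TA, a log2 ratio of -0.14, while its 3 other probe sets gave -0.47, -0.16 and 0.15. Neither phenylalanine subunit nor Qars was thus higher in the knockout pool on the probe set shown, and the probe sets of Qars disagreed in sign.

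Among cytosolic genes with more than 1 measured probe set in TA, 9 of 10 had the same sign on all of them, Qars being the exception. Gars, Cars, Lars and Vars, with 1 measured probe set each, were not among these 10. In heart, 5 of 9 cytosolic genes had the same sign on all measured probe sets (not Eprs, Qars, Sars and Wars), as did 4 of 8 mitochondrial genes (not Cars2, Fars2, Iars2 and Wars2). The probe set annotated to both Aars and Exosc6, which was not used, had 287 in knockout TA and 303 in wild-type TA, unlike the 2 probe sets of Aars alone, at log2 ratios of 0.49 and 0.41.

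**Figure D2:**
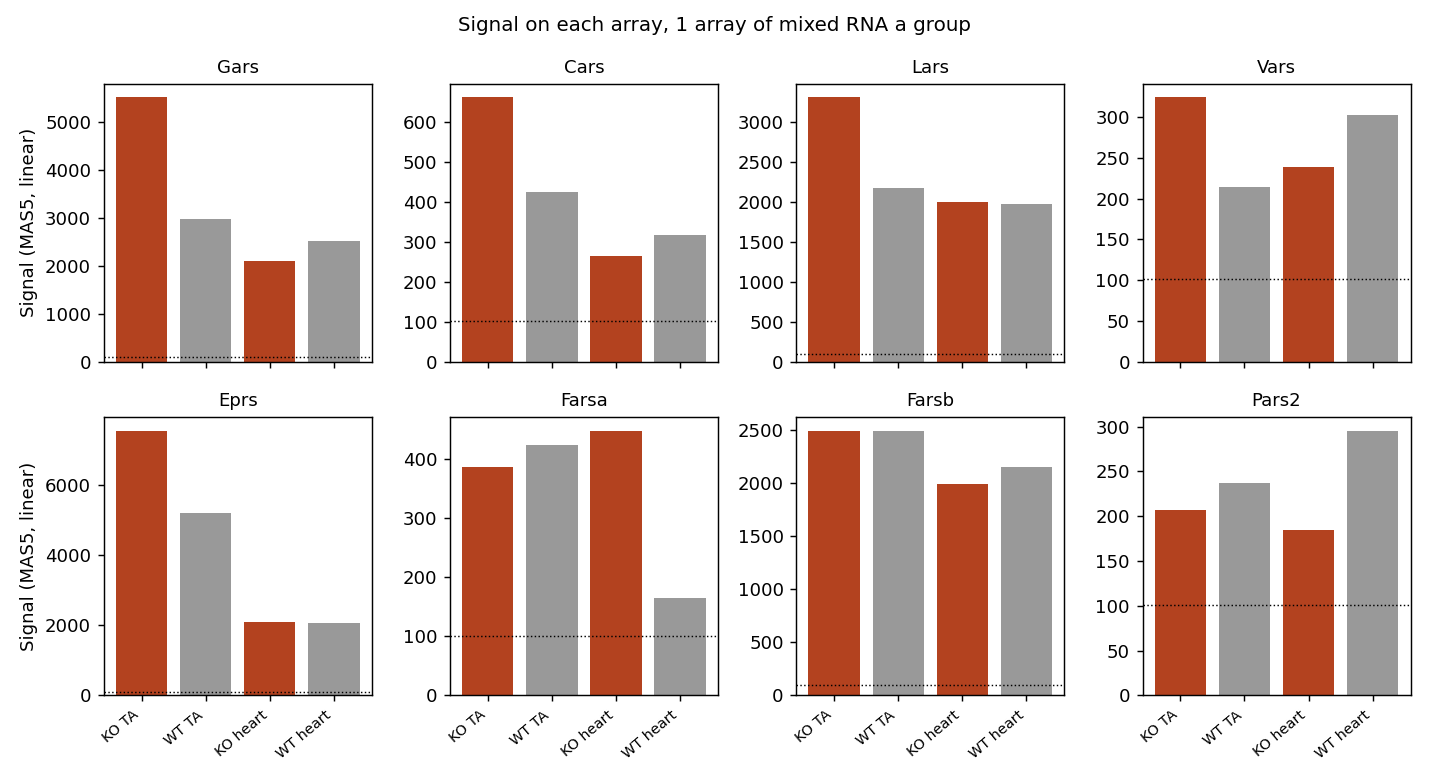
Signal on a linear scale (vertical axis) of the 4 genes past 1.5-fold in TA, of Eprs, of both phenylalanine subunits and of Pars2, on each of the 4 arrays (bars, knockout orange and wild type grey, 1 array each). The dotted line is the floor of 101.3. Gars, Cars, Lars, Vars and Eprs are highest on the knockout TA array, and Farsa is lowest on the wild-type heart array.

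The structural classes of the enzymes had medians close to each other. Class I enzymes, which share a Rossmann-type catalytic domain, had a median log2 ratio of 0.50 over 10 cytosolic genes in TA. Class II enzymes, built on a different fold, had 0.40 over 9. The fused enzyme gene Eprs was counted in class I only, although of its mitochondrial partners Ears2 was counted in class I and Pars2 in class II. The 7 measured enzymes of the multi-synthetase complex (Eprs, Iars, Kars, Lars, Mars, Qars and Rars) had a median of 0.44, and the 12 cytosolic genes outside it had 0.46. In heart the medians were 0.01 within the complex, with 4 of 7 genes above wild type, and -0.23 outside it, with 1 of 12 above.

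In knockout TA the scaffold genes lay below the median of 0.44 of the complex enzymes, though Qars at -0.14 was also below wild type. Aimp1 had 2564 in knockout TA and 2673 in wild-type TA, Aimp2 had 4731 in knockout TA and 5601 in wild-type TA, and Eef1e1 had 2080 in knockout TA and 2140 in wild-type TA. All lay slightly below wild type, Aimp2 the most at 1.18-fold lower.

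The 5 cytosolic genes with a CARE match had log2 ratios from 0.44 to 0.89 in TA, with a median of 0.49. The 7 measured genes with a window and no match ranged from -0.14 to 0.57, with a median of 0.27. The ranges overlapped, with Eprs and Sars among the unmatched genes reaching 0.54 and 0.57. In heart the same genes had medians of -0.22 with a match and 0.01 without. The other measured cytosolic genes had no window used and were in neither group. Among them were Cars, Lars and Vars, which passed 1.5-fold in TA.

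The mitochondrial enzymes stayed close to wild type in TA. The highest log2 ratios were 0.16 for Wars2, 0.13 for Cars2, and 0.12 for Rars2 and Tars2, and Nars2 and Ears2 had 0.03. Slightly below wild type lay Lars2 at -0.04, Yars2 at -0.05, Iars2 at -0.06, Mars2 at -0.11, Hars2 at -0.13, Sars2 at -0.14, and Fars2 and Pars2 at -0.19. Mars2 was near the floor, with 91.3 in knockout TA and 109 in wild-type TA.

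Aars2, the mitochondrial alanine enzyme gene, was the lowest, with 137 in knockout TA and 197 in wild-type TA, 1.44-fold lower. Its heart signals were 208 in the knockout and 219 in wild type, so knockout TA was the lowest of the 4 arrays. Probe sets other than the one shown passed 1.5-fold for Cars2, 1.68-fold higher at 248 in knockout TA and 148 in wild-type TA, and for Hars2, 1.62-fold lower at 146 in knockout TA and 236 in wild-type TA. The brighter probe sets of Cars2 and Hars2 showed ratios of 1.10 and 0.913.

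Set against the mitochondrial enzyme for the same amino acid, the cytosolic enzyme had the larger ratio in 14 of 15 pairs in TA, with a median difference of 0.51 on the log2 scale. Eprs enters as the partner of both Ears2 and Pars2, and Farsa without Farsb as the partner of Fars2. The widest gap was for alanine, with 0.49 for Aars and -0.52 for Aars2. Arginine was the exception, with 0.10 for Rars and 0.12 for Rars2. Hars and Hars2, which are immediate neighbours on chromosome 18, had 0.24 and -0.13, and Eprs and Iars2, with 1 protein-coding gene between them on chromosome 1, had 0.54 and -0.06.

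**Figure D3:**
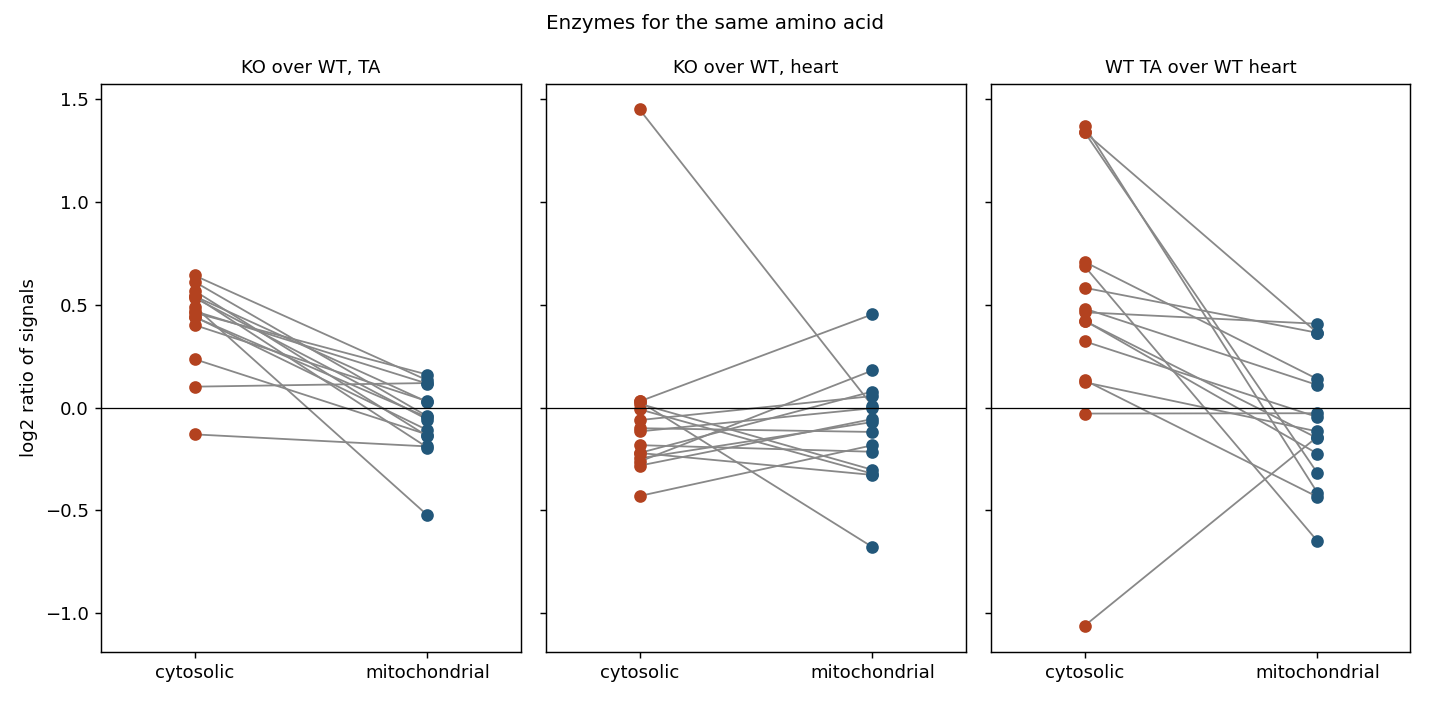
Log2 ratios (vertical axis) of the cytosolic enzyme (left, orange) and the mitochondrial enzyme (right, blue) for the same amino acid, joined by a line, for knockout over wild type in TA and heart and for wild-type TA over wild-type heart. In TA 14 of 15 lines fall from left to right, in heart 7 of 15, and between the tissues 13 of 15.

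In knockout heart the cytosolic synthetases were not higher as a group. Of 19 cytosolic genes, 5 were higher than in wild type, and the median log2 ratio was -0.12. Of 15 mitochondrial genes, 5 were higher, and the median was -0.07. All 11452 genes measured in heart had a median of -0.002, and 49.7% of them were higher. At 1.5-fold, 1 cytosolic gene was higher and 0 lower, and 0 mitochondrial genes were higher and 1 lower, against 2.67% and 4.19% of all measured genes.

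The higher gene was Farsa, at 449 in knockout heart and 164 in wild-type heart, 2.73-fold. Wild-type heart was the lowest of the 4 arrays, since both TA pools had signals of 388 and 425. Only this probe set of Farsa reached the floor in heart, and with the floor at 471.5 the gene was not measured. Farsb, the other subunit, had 1991 in knockout heart and 2152 in wild-type heart, so the subunits did not move together. The other measured probe sets of Farsb were lower in knockout heart by more, at log2 ratios of -0.39 and -0.34.

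The lower gene was Pars2, the mitochondrial proline enzyme gene, at 185 in knockout heart and 296 in wild-type heart, 1.60-fold lower on its only probe set, and not measured with the floor at 471.5. Its TA signals were 207 in the knockout and 237 in wild type. Knockout heart was thus the lowest array and wild-type heart the highest.

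The other cytosolic members lay between -0.43 and 0.10 in heart. Nars was the lowest, with 1895 in knockout heart and 2553 in wild-type heart, and both of its probe sets were lower. Vars, Hars, Cars, Gars and Aars had log2 ratios of -0.34, -0.28, -0.26, -0.25 and -0.25. Gars, Cars and Vars, which passed 1.5-fold in TA, were thus below wild type in heart. Rars and Yars had -0.22, Wars -0.18, Tars -0.12, Farsb -0.11, Iars -0.10, Mars -0.06 and Sars -0.01. Qars, Lars, Eprs and Kars lay above wild type at 0.01, 0.02, 0.03 and 0.10.

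Among the mitochondrial members in heart, Ears2 (glutamate) was the highest, with 323 in knockout heart and 236 in wild-type heart, a log2 ratio of 0.45. Cars2 followed at 0.18, with -0.51 on its other measured probe set, Rars2 at 0.08 and Mars2 at 0.06. Yars2, Sars2 and Lars2 had -0.33, -0.32 and -0.30, Wars2 had -0.21 and Nars2 -0.18, and Iars2, Aars2, Hars2, Tars2 and Fars2 lay between -0.12 and 0.01. The cytosolic enzyme had the larger ratio in 7 of 15 pairs, with a median difference of -0.11. Among these the phenylalanine pair depended on the subunit, as Farsa had 1.45 and Farsb -0.11 against 0.01 for Fars2.

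The log2 ratio in TA minus that in heart was above 0 for 17 of 19 cytosolic genes, with a median of 0.59. For mitochondrial genes it was above 0 for 9 of 15, with a median of 0.06. Over 10802 genes measured in both tissues, 50% were above 0. The difference was at least 1.5-fold upwards for 10 cytosolic genes and 0 mitochondrial genes, against 6.44% of all genes, and downwards for 1 cytosolic gene, Farsa at -1.58, against 5.1%. The largest upward differences were 1.14 for Gars, 0.94 for Vars, 0.91 for Cars and 0.83 for Nars. The highest of the 4 signals was on the knockout TA array for 15 of 19 cytosolic genes and 2 of 15 mitochondrial genes, where 22.5% of 12178 genes peaked on that array.

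Between the wild-type tissues, the cytosolic enzymes were higher in TA as a group, and the median of the mitochondrial enzymes was near that of all genes. Of 19 cytosolic genes, 16 were higher in wild-type TA than in wild-type heart, with a median log2 ratio of 0.42. Of 15 mitochondrial genes, 5 were higher, and the median was -0.12. All 11872 genes measured in this comparison had a median of -0.07, and 44.8% of them were higher in TA. At 1.5-fold, 5 cytosolic genes were higher and 1 lower, and 0 mitochondrial genes were higher and 1 lower, against 14.5% and 18% of all measured genes. Measured probe sets of a gene had the same sign in 8 of 10 cytosolic and 3 of 8 mitochondrial genes that had several, the mitochondrial exceptions being Hars2, Iars2, Lars2, Tars2 and Yars2. This comparison and the knockout comparisons share the wild-type arrays.

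**Figure D4:**
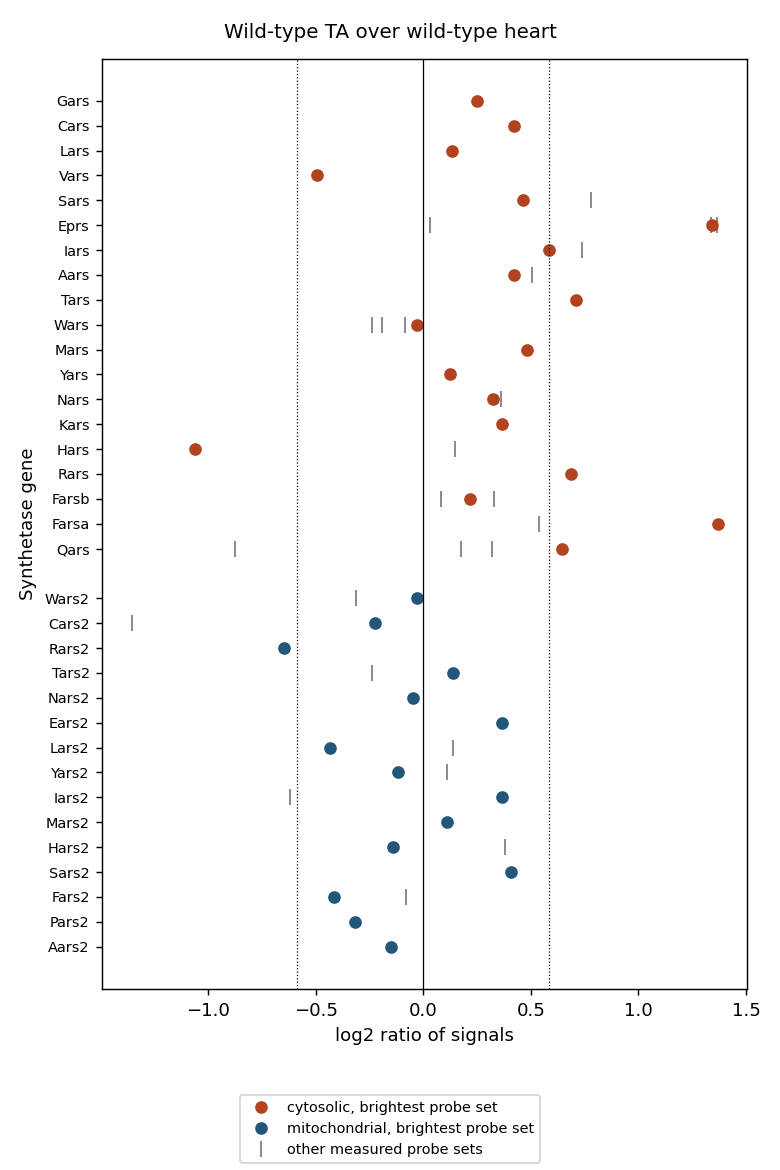
Log2 ratio of wild-type TA over wild-type heart signal (horizontal axis) for each synthetase gene (vertical axis), with dots for the probe set of highest mean signal, grey ticks for other measured probe sets and dotted lines at 1.5-fold. Most cytosolic dots lie right of 0, with Farsa at 1.37 and Eprs at 1.34, and Hars at -1.06 lies opposite its other probe set at 0.15.

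Eprs had 5179 in wild-type TA and 2045 in wild-type heart, 2.53-fold higher, and 2088 in knockout heart, and its 2 other bright probe sets gave log2 ratios of 1.36 and 1.34, while a probe set near the floor gave 0.03. Farsa was 2.58-fold higher, with 425 in wild-type TA and 164 in wild-type heart, and its second measured probe set gave 0.54. Tars had 1743 in wild-type TA and 1066 in wild-type heart, 1.63-fold higher, with 2413 in knockout TA and 984 in knockout heart. Rars had 3173 in wild-type TA and 1970 in wild-type heart, 1.61-fold higher, with 3405 in knockout TA and 1690 in knockout heart. All 7 measured enzymes of the multi-synthetase complex were higher in wild-type TA, Qars only without quantile normalization, with a median of 0.58, against 0.29 for the 12 cytosolic genes outside it. The scaffold gene Aimp2 was 2.90-fold higher, at 5601 in wild-type TA and 1933 in wild-type heart. Aimp1 and Eef1e1 were also higher in wild-type TA, with log2 ratios of 0.50 and 0.44.

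For Qars and Hars the tissue ratio depended on the probe set. The shown probe set of Qars was 1.56-fold higher in TA, at 2556 in wild-type TA and 1637 in wild-type heart (1645 in knockout heart), while another was at 1464 in wild-type TA and 2686 in wild-type heart. Quantile normalization made that other probe set the brighter, and the log2 ratio of Qars then turned from 0.64 to -0.86. Hars was 2.09-fold lower in TA, at 1152 in wild-type TA and 2405 in wild-type heart, with 1356 in knockout TA and 1977 in knockout heart, but its other probe set had 852 in wild-type TA and 768 in wild-type heart, a log2 ratio of 0.15. With quantile normalization, 4 cytosolic genes were higher and 2 lower.

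Iars, Mars, Sars, Cars, Aars, Kars, Nars, Gars and Farsb were higher in wild-type TA with log2 ratios of 0.58, 0.48, 0.46, 0.42, 0.42, 0.37, 0.32, 0.25 and 0.22. Lars and Yars had 0.13 and 0.12, Wars had -0.03, and Vars was lower at -0.49. Among mitochondrial members Rars2 (arginine) was lower in wild-type TA at 845, against 1326 in wild-type heart, 1.57-fold lower, while cytosolic Rars was higher. Its knockout signals were 918 in TA and 1399 in heart, and with ratios centred on the median of measured genes it lay just under 1.5-fold. Lars2, Fars2 and Pars2 had -0.43, -0.41 and -0.32, and Sars2, Ears2 and Iars2 had 0.41, 0.36 and 0.36. The remaining mitochondrial members lay between -0.22 for Cars2 and 0.14 for Tars2 on the probe sets shown. The other measured probe set of Cars2 was 2.56-fold lower in TA, at 148 in wild-type TA and 378 in wild-type heart. The cytosolic enzyme had the larger tissue ratio in 13 of 15 pairs, with a median difference of 0.57.

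Other genes of transfer RNA charging and translation were described in the same way. In the list of scaffold and other charging genes, 1 of 14 was 1.5-fold higher in knockout TA and 0 lower, with a median of -0.06. Among all measured genes 4.2% were 1.5-fold higher in TA and 4.44% lower. The higher gene of the list was Yrdc, which takes part in a modification of transfer RNA, at 923 in knockout TA and 539 in wild-type TA. Vars2, the mitochondrial valine enzyme gene, had a log2 ratio of 0.09. In heart 0 of the 14 passed 1.5-fold, where 2.67% of all measured genes were higher and 4.19% lower.

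Of 31 cytosolic translation factor genes, 23 had a higher signal in knockout TA than in wild type, against 48.7% of all genes. Their median log2 ratio was 0.09. At 1.5-fold 3 were higher and 0 lower, against 4.2% and 4.44% of all genes. The 3 genes were Eif3a, at 13851 in knockout TA and 8635 in wild-type TA, Eif3c and Eif4ebp1. Eif4ebp1 encodes an inhibitor of cap-dependent translation and also stands in the stress response list. In heart 0 of 31 passed in either direction, against 2.67% and 4.19%, with a median of -0.04. Between wild-type TA and heart, 23 of 31 were higher in TA, against 44.8% of all genes. At 1.5-fold 4 were higher there and 0 lower, against 14.5% and 18%. For knockout over wild type, 0 of 14 genes in the mitochondrial translation factor list passed 1.5-fold in either direction in TA or heart. The shares of all genes are those given above. The list had medians of -0.12 in TA and -0.19 in heart. It also holds Trmu, Mto1, Gtpbp3 and Pus1, which modify transfer RNA. In TA only these were above wild type, at log2 ratios of 0.20, 0.44, 0.03 and 0.03. The other 10 lay between -0.53 and -0.06 in TA and between -0.51 and -0.01 in heart. In heart Trmu, Mto1, Gtpbp3 and Pus1 had 0.26, 0.22, 0.03 and -0.07. Between wild-type TA and heart, 3 of these 14 were 1.5-fold lower and 1 higher in TA, where 18% and 14.5% of all genes were. The mitochondrial elongation factor genes Gfm1 and Tufm were 2.20-fold and 1.89-fold lower and Guf1 1.52-fold lower, and the release factor gene Mtrf1l was 1.55-fold higher. In the list of integrated stress response transcripts, 19 of 27 were 1.5-fold higher in knockout TA, against 4.2% of all genes. Their median was 0.93. In knockout heart 3 of 23 were higher and 4 lower, against 2.67% and 4.19%, with a median of 0.14. In this stress response list Asns had 2554 in knockout TA and 318 in wild-type TA, and Atf4 had 8586 in knockout TA and 4795 in wild-type TA. The cytosolic synthetase median of 0.46 was below the median of this list, which was known to be high in these arrays when it was written.

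**Figure D5:**
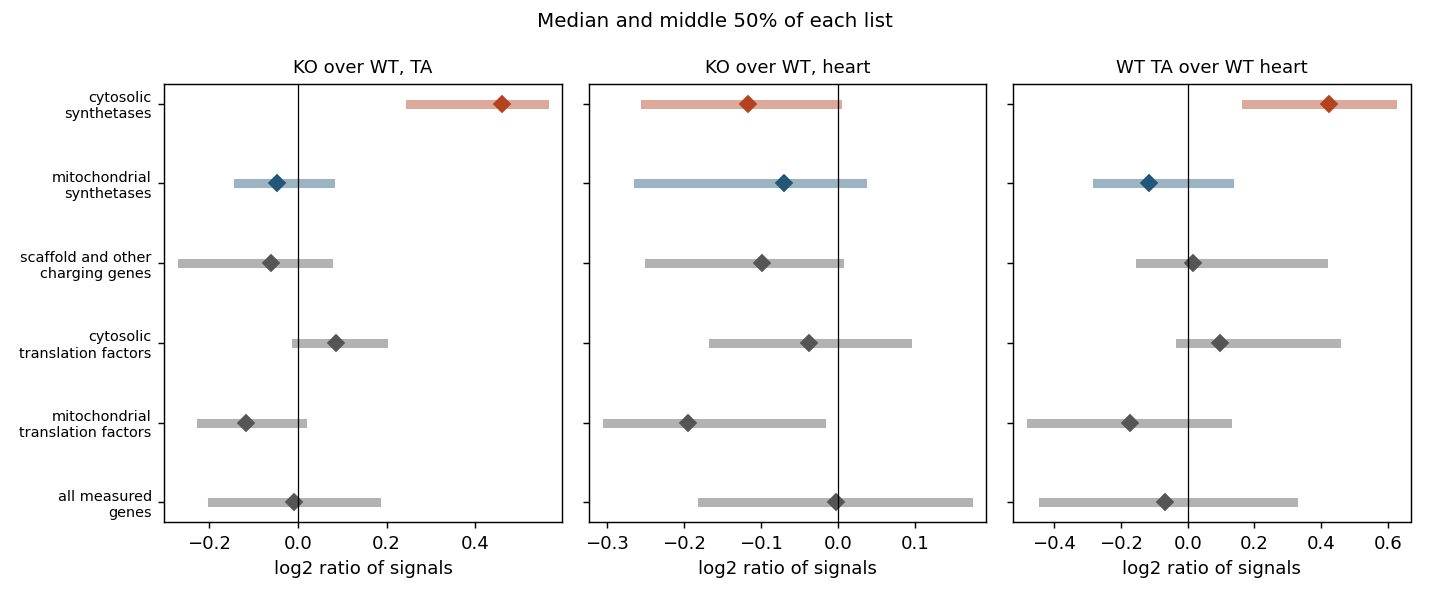
Median log2 ratio (diamonds) and middle 50% of genes (bars) on the horizontal axis for the synthetase groups, 3 other lists and all measured genes (vertical axis), in each of the 3 comparisons. The horizontal scale differs between panels. In TA the cytosolic synthetases have a median of 0.46, and the other lists lie between -0.12 and 0.09.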

How the data were processed

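Signal intensities, 1 per probe set on a linear scale, were deposited by the authors. Per the submitters' processing notes, MAS5 was used, with its scaling target and detection calls not stated. With 2% trimmed at each end, the 4 arrays had means from 496.35 to 496.83, and they were compared without further scaling. Precision is limited by there being 1 array a group.

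Gene names came from the platform annotation, in which 34945 had 1 gene symbol, 932 several and 9160 none. The symbols used for the members, with Mars1 in place of Mars, matched RefSeq (GRCm38.p6) by gene identifier. Signals below the floor of 101.3, the 50th percentile, were raised to it. A gene counted as measured where either array reached the floor. Its probe set with the highest mean signal was shown. Log2 ratios were computed with pandas 2.3.3 and numpy 2.4.6 and checked on planted changes. Members were counted at 1.5-fold. All members were named, with signals of every array for those past it. Of other lists some of those past it were named, at most 4 a comparison and not always the largest. Members and lists were chosen with earlier results of these data known. Alternatives changed the floor, the normalization or the probe sets. The stretch around the match in Aars is not reported here.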

Additional observations from a re-analysis of the deposited data

How the results depend on the processing

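Results were recomputed with the floor at the 25th percentile, at the 75th or absent, with quantile normalization and with centred ratios. They were also recomputed with the median over probe sets, and with only the probe sets whose name has no suffix letter (plain probe sets). Plain probe sets leave out names with the letter a, s or x. The shown probe sets of Farsa, Hars and Hars2 carry the letter a. The cytosolic median stayed between 0.44 and 0.47 in TA and between -0.17 and -0.11 in heart, and the mitochondrial median between -0.09 and -0.04 in TA. Of 86 recomputed ratios of members past 1.5-fold, 79 stayed past it, Qars with quantile normalization in the opposite direction. The 86 come from 13 results and 7 settings, leaving out cases in which the gene was no longer measured. With the floor at the 75th percentile, 2 cytosolic genes in TA instead of 4 were 1.5-fold higher, and 0 cytosolic genes were higher and 0 mitochondrial genes lower in heart. At this floor Vars, Farsa and Pars2 were not measured, and Cars was measured with its wild-type signal raised to the floor. This floor also gave 0 genes of the mitochondrial translation factor list 1.5-fold higher between wild-type tissues and a median of -0.046 for that list. With plain probe sets, 0 cytosolic genes were higher in heart, 1 mitochondrial gene (Hars2) was lower in TA, the tissue ratio of Hars turned to 0.15 and 0 cytosolic genes were lower between wild-type tissues. These probe sets gave the stress response list a median of 0.80 in TA and, between wild-type tissues, -0.060 with 3 genes higher. With the median over probe sets, 0 cytosolic and 2 mitochondrial genes were lower between wild-type tissues, and the cytosolic translation factors had a median of 0.21. Quantile normalization gave 2 cytosolic genes lower, -0.86 for Qars and 2 charging genes higher between wild-type tissues. Centring gave 0 mitochondrial genes lower, Rars2 lying just under 1.5-fold, and 2 charging genes higher there. The floor at the 25th percentile gave the stress response list 10 higher genes and a median of 0.33 there. Causes other than those named were not tested. No paired analysis was possible because each group has 1 array.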
